A study of Mus musculus with 2 samples.

Results

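Cluster 9 of the liver CD4 T cells, called activated CD4 T cells here, was the set of cells that the deposited cell table names cd4 and places in cluster 9. It held 404 of the 11929 annotated cells, with 132 from TG mice and 272 from WT mice. The CD4 name covers 3 clusters in all, and clusters 6 and 21 hold the other CD4 T cells. The cells were CD45-bearing immune cells of mouse liver, and were captured in BD Rhapsody microwells, where both the transcripts of a cell and 49 oligonucleotide-linked antibodies are counted by molecular identifiers (UMIs). TG mice are dnTGFβRII mice, used as a model of primary biliary cholangitis. Their T cells make a human receptor II that cannot pass on the TGF-β signal, driven from the mouse CD4 promoter, so that CD8 as well as CD4 T cells carry it. The controls, called WT, are C57BL/6 mice, which is also the strain given for TG. The label age is 10 weeks for both groups, and the methods give a younger one. TG cells were captured in 1 library together with IFN-γ ARE-Del-/- mice, and WT cells in another together with P40-/-IL-2Ra-/- mice, and only cells named TG or WT were used. There was therefore 1 library per genotype, no test was made, and genotype and library cannot be told apart in any TG over WT difference. All intervals are exact at 95% and cover counting error only.

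CD4 T cells that have met antigen lose the homing receptors of naive cells, keep CD44 high and take up one of several programmes. Th1 cells use the transcription factor T-bet (Tbx21) and make IFN-γ, Th2 cells use GATA3, Th17 cells make IL-17, and regulatory T cells use Foxp3. Il1rl1 encodes ST2, the receptor chain for the alarmin IL-33, and is known on Th2 cells, on group 2 innate lymphoid cells and on regulatory T cells of tissues. Il18r1 and Il18rap encode the chains of the receptor for IL-18, a cytokine that drives IFN-γ from Th1 cells, and they lie beside Il1rl1 in a cluster of IL-1 family receptor genes.

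The promoters of Il1rl1 and Il18r1 are shown because the first gene had the highest TG over WT ratio of the ranked genes in cluster 9 and the second was found there in both genotypes. Il1rl1 is on chromosome 1, 40429570 to 40465415 (GRCm38, plus strand), Il18r1 on chromosome 1, 40465552 to 40500854 and Il18rap on chromosome 1, 40515362 to 40551705, in GENCODE coordinates. RefSeq sequences of the GRCm38.p6 build were used, each 300 bases long, on the plus strand. Il1rl1 has 2 entries, at chr1:40429320-40429619 and chr1:40439379-40439678, and the first of 3 entries of Il18r1 lies at chr1:40465302-40465601. Capitals mark the letters AGATAA or, on the other strand, TTATCT, one form of the sequence that GATA factors recognise. Of 32851 promoters in the same table, 3672 (11.2%) hold these letters on either strand.
Il1rl1 first: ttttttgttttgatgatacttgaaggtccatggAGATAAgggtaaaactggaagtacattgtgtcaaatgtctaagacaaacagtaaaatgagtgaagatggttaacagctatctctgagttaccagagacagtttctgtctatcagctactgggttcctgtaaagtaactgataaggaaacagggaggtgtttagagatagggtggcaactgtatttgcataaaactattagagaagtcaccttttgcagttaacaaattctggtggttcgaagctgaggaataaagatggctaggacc
Il1rl1 second: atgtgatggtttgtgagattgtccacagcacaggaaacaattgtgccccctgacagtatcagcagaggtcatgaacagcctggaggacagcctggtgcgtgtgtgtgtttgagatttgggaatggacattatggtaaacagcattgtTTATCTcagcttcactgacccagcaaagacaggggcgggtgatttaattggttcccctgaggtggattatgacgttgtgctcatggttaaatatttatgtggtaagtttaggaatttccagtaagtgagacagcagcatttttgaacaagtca
Il18r1 first: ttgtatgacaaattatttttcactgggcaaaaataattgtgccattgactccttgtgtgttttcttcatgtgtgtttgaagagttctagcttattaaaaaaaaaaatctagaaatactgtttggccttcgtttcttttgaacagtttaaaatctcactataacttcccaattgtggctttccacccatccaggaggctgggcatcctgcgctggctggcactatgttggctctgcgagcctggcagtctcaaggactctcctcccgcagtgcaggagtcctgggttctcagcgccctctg
Both Il1rl1 windows hold the letters in 1 place, and neither the 3 windows of Il18r1 nor that of Il18rap holds them. A match is a description of these windows and not a binding site. The counts are summed per gene, so they do not say from which start Il1rl1 was transcribed.

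The TG cells of cluster 9 held 475456 RNA UMIs, with a median of 3129 per cell, and the WT cells held 743336, with a median of 2316. Scrublet called 0 TG and 22 WT cells of the cluster doublets, and 9 TG and 6 WT cells held 2 or more UMIs of B lineage and also of T lineage genes. Doublets were kept in the values below and left out in an alternative. Over the whole of the 2 library files, 267 cell indexes occurred in both, and 36 were shared by named TG and WT cells. Mature B cells (1068 TG and 1494 WT cells, with medians of 2923 and 2045 UMIs) should lack T cell transcripts and served as the measure of free RNA. In the deposited table, 630 genes are listed at 0 in every TG cell and 365 in every WT cell. Of the genes looked up in the library files, those listed at 0 in TG had UMIs there in fewer than 10 cells, so such a 0 can be a filter.

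The cells of cluster 9 were T cells with CD4. Cd3e, a chain of the T cell receptor complex, was at 1033 and 942 CPM in TG and WT cluster 9 (CPM, UMIs per 1000000 UMIs of the summed cells), against 103 and 149 in B cells. Cd4 was at 932 CPM (95% CI 847 to 1023) in TG and 587 CPM (95% CI 533 to 644) in WT. Its level in B cells was 25.3 and 37 CPM, so the gene stood far above free RNA in both genotypes. Foxp3, the regulatory T cell factor, was at 2.10 CPM in TG, where 1 cell held it, and 36.3 CPM in WT, where 15 cells did. In cluster 21 the same gene was at 923 and 953 CPM, so the regulatory T cells of this annotation lie there. Cd8a, a CD8 coreceptor chain, had UMIs in 14 of 132 TG cells and 28 of 272 WT cells of cluster 9, or 10.6% and 10.3%, against 4.87% and 6.96% of B cells. Counting Cd8b1, Trdc and Zbtb16 as well, 24 TG and 55 WT cells of cluster 9 held a UMI of another T lineage, and each gene's ratio was also taken without them.

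Of the genes given to mark the cluster, Il18r1 and Axin2 were higher in cluster 9 than in the pooled other CD4 clusters in both libraries, and Il1rl1 was so only in TG. Il18r1 was at 181 CPM (TG) and 339 CPM (WT), and its log2 ratio over the other CD4 clusters was 1.86 (95% CI 1.15 to 2.71) in TG and 2.22 (95% CI 1.87 to 2.60) in WT. Axin2, a target and brake of Wnt signalling, was at 135 CPM (TG) and 87.4 CPM (WT), with log2 ratios of 1.44 and 0.88. Cd5, a negative regulator of T cell receptor signals, was at 244 CPM (TG) and 221 CPM (WT), close to the other clusters at log2 ratios of 0.05 and 0.25. Il1rl1 was at 221 CPM (95% CI 181 to 267) in TG and 5.38 CPM (95% CI 1.47 to 13.8) in WT. Its log2 ratio over the other CD4 clusters was 1.38 (95% CI 0.81 to 2.02) in TG and -2.96 (95% CI -5.04 to -1.68) in WT, so the gene does not mark cluster 9 in WT mice. These markers and all cluster comparisons below are a description, since the clusters were built from the same genes. The pooled other clusters also differ in mix, with 58 cells of cluster 6 and 48 of cluster 21 in TG, and 397 and 65 in WT. Ratios over the pool are therefore not like for like between TG and WT.

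Over the pooled other clusters, the list for activation and memory did not set cluster 9 apart in the same way in both libraries. The mix of clusters 6 and 21 in that pool differed between the libraries, and its part was not tested. Of 18 genes, 17 had at least 10 UMIs in TG, of which 10 were lower in cluster 9 than in the other CD4 clusters and 4 at least 2-fold lower, at a median log2 ratio of -0.36. Of 7707 genes with as many UMIs in TG, 49.6% were lower and 6.97% at least 2-fold lower. In WT 13 of 18 were higher and 4 at least 2-fold higher, at a median of 0.43, beside 60.1% and 8.1% of 8979 genes. The list summed to 5018 CPM in TG cluster 9, which was above cluster 6 (2494 CPM) and below cluster 21 (7073 CPM). In WT the sums were 4679, 2028 and 5113 CPM in the same order. By the sum of this list cluster 9 lay above cluster 6 and below cluster 21 in both genotypes, although the intervals of clusters 9 and 21 overlapped in WT. The 16 immediate early genes, which follow recent receptor signals, did not share that order. They had medians of -0.28 in TG and 0.01 in WT, and their sums in clusters 9, 6 and 21 were 11505, 15351 and 11925 CPM in TG and 14439, 14534 and 11982 CPM in WT. Cluster 9 was thus not above cluster 6 in either genotype for these genes. The name activated is kept as a label of the cluster and is not a result of these lists.

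Cluster 9 was 55.5% of TG CD4 T cells (132 of 238, 95% CI 48.9 to 61.9) and 37.1% of WT CD4 T cells (272 of 734, 95% CI 33.6 to 40.7). Cluster 6 was 24.4% of TG and 54.1% of WT CD4 T cells, and cluster 21 was 20.2% and 8.86%. As a share of all T cells of the genotype, cluster 9 was 6.19% in TG and 6.52% in WT, and the intervals (5.21 to 7.30 and 5.79 to 7.31) overlap. The higher share among CD4 T cells in TG thus stood beside fewer cluster 6 cells and not beside a higher share of cluster 9 among T cells. Without doublets and mixed cells the shares of CD4 T cells were 56.2% and 35.2%. The pools, the sort and the size of each library can set such shares, and their part was not tested.

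Against the other CD4 clusters, cluster 9 held higher levels of genes of Th1 cells and of the IL-18 receptor. At least 2-fold higher in both libraries were 40 of 3028 genes (1.32%) with at least 50 UMIs in each library, and at least 2-fold lower in both were 17 (0.561%). The highest of the ranked genes was Cxcr6, the receptor for CXCL16 on liver sinusoids. Cxcr6 was at 339 CPM (95% CI 288 to 395) in TG and 237 CPM (95% CI 203 to 274) in WT, against 51.6 and 5.01 CPM in cluster 6 and 46.2 and 39.1 CPM in cluster 21. Ifng was at 238 CPM (TG) and 169.5 CPM (WT) and its log2 ratios were 2.25 and 3.82. Tbx21 was at 130.4 CPM (TG) and 72.6 CPM (WT), with log2 ratios of 1.85 and 2.71. Each of these was higher in cluster 9 than in clusters 6 and 21 of its own library, and only for Tbx21 in WT did the interval overlap that of cluster 21 (39.1 CPM). Bhlhe40, a transcription factor that supports cytokine production of effector T cells, had log2 ratios of 1.82 and 3.24, and Id2, an inhibitor of E proteins, 1.85 and 2.21. Itgb1, the integrin β1 chain, was at 1628 CPM (TG) and 977 CPM (WT), and the cytoskeletal adaptor Zyx at 429 CPM (TG) and 265 CPM (WT). Both were higher in cluster 9 than in the pooled others, although the intervals in WT cluster 21 (Itgb1 at 934 CPM, Zyx at 196 CPM) overlapped.

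**Figure D1:**
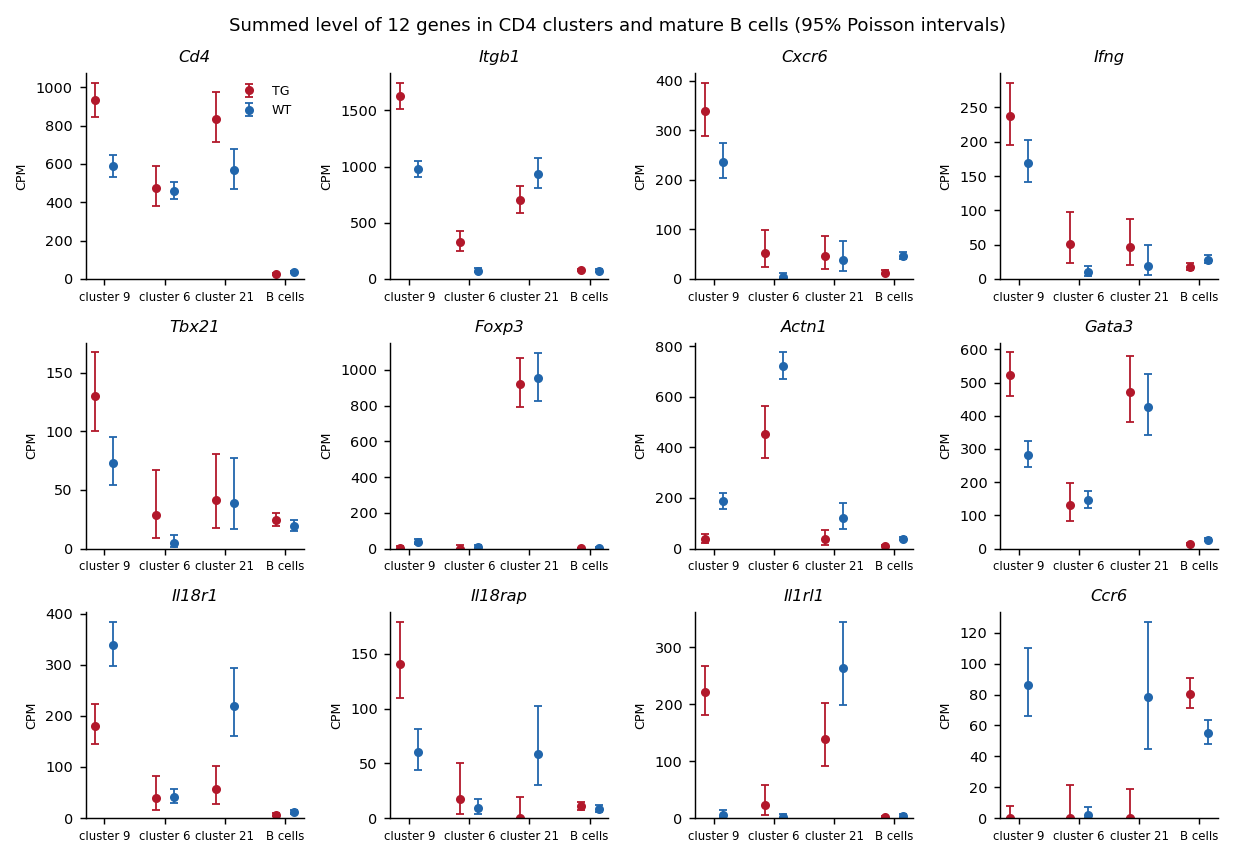
Summed level of 12 genes in CPM (vertical axes, from 0) in clusters 9, 6 and 21 of the CD4 T cells and in mature B cells, for TG (red) and WT (blue), with points for the level and bars for the exact 95% Poisson interval. Cxcr6, Ifng and Tbx21 are higher in cluster 9 than in the other clusters of both genotypes, Foxp3 is highest in cluster 21, and Il1rl1 is high in TG cluster 9 at 221 CPM but in WT is high in cluster 21 at 264 CPM.

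Other ranked genes were St3gal6, Chst2, Slc25a24, Arl4d and Plac8. St3gal6, a sialyltransferase, was at 111 CPM (TG) and 99.6 CPM (WT), and Chst2, a sulfotransferase, at 114 CPM (TG) and 67.3 CPM (WT). Slc25a24, a mitochondrial carrier, was at 114 CPM (TG) and 114 CPM (WT), and the small GTPase gene Arl4d at 101 CPM (TG) and 82.1 CPM (WT). All 4 lay above clusters 6 and 21 of the same library in these sums. The intervals overlapped those of WT cluster 21 for Chst2 (53.8 CPM) and Slc25a24 (68.4 CPM), of TG cluster 21 for Chst2 (56.4 CPM) and of TG cluster 6 for St3gal6 (57.3 CPM) and Arl4d (34.4 CPM). Plac8 had log2 ratios of 1.62 and 2.36, but its level in B cells (655 and 362 CPM) was above that in cluster 9 (319.7 and 95.5 CPM), so free RNA could not be told apart there. Il18rap, the second chain of the IL-18 receptor, was at 141 CPM (TG) and 60.5 CPM (WT), with log2 ratios of 3.91 and 1.78. It was at 0 of 194965 UMIs in TG cluster 21, which allows up to 15.4 CPM, and at 58.7 CPM in WT cluster 21.

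**Figure D2:**
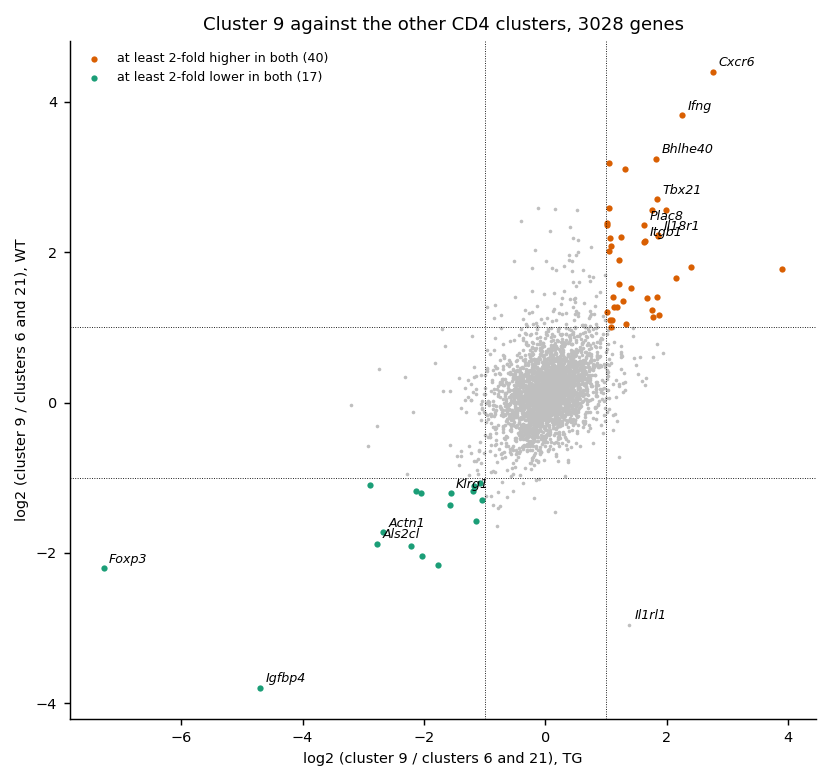
Log2 ratio of cluster 9 over the pooled clusters 6 and 21 in TG (horizontal axis) and in WT (vertical axis) for 3028 genes, with dotted lines at 2-fold. The 40 genes at least 2-fold higher in both (orange) lie at the upper right with Cxcr6 at 2.76 and 4.40, the 17 at least 2-fold lower in both (green) lie at the lower left, and Il1rl1 lies apart at 1.38 and -2.96.

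As a sum, genes of naive and central memory cells were lower in cluster 9 than in cluster 6 and higher than in cluster 21. The list of 12 genes summed to 3014 CPM in TG and 3663 CPM in WT cluster 9, against 6801 and 8113 CPM in cluster 6 and 1749 and 2034 CPM in cluster 21. Against the pooled others, 10 of 12 genes were lower in both libraries and 5 at least 2-fold lower in both. Of 7619 genes with the minimum of 10 UMIs used for lists, 23.3% were lower in both and 0.866% at least 2-fold lower, and 35.7% were higher in both and 1.71% at least 2-fold higher. The median log2 ratio of the list was -0.78 in TG and -1.38 in WT, against 0.01 and 0.13 over all genes with that minimum. Igfbp4, an insulin-like growth factor binding protein high in naive T cells, was at 6.31 CPM (TG) and 55.2 CPM (WT) in cluster 9 and at 401 CPM (TG) and 927 CPM (WT) in cluster 6. Actn1, α-actinin, was at 35.8 CPM (TG) and 187 CPM (WT) and in cluster 6 at 453 CPM (TG) and 721 CPM (WT). Ccr7, the chemokine receptor for lymph node entry, was at 29.4 CPM (TG) and 61.9 CPM (WT) and in cluster 6 at 149 CPM (TG) and 268 CPM (WT). In cluster 21 Ccr7 was at 20.5 and 44.0 CPM, Igfbp4 at 0 of 194965 UMIs (up to 15.4 CPM) and 24.4 CPM and Actn1 at 35.9 and 122 CPM, with intervals that overlapped those of cluster 9 for all 3 genes in TG and in WT. Lef1 and Tcf7, transcription factors of naive and memory T cells, were at 183 and 218 CPM and 574 and 661 CPM in TG and WT. Their log2 ratios over cluster 21 alone were 2.52 and 2.87 for Tcf7, so cluster 9 lay between the other 2 clusters for this gene. In WT the log2 ratios over cluster 21 alone were above 0 as well for Lef1, Igfbp4, Actn1, Ccr7, Bach2, Pdk1, Als2cl and Rflnb, while in TG those of Actn1, Bach2, Pdk1, Als2cl and Rflnb were below 0. Bach2, a repressor that holds back effector differentiation, was at 18.9 CPM (TG) and 63.2 CPM (WT), and Als2cl at 21 CPM (TG) and 79.4 CPM (WT). Other ranked low genes were Pdk1, a kinase that limits pyruvate use in mitochondria, at 23.1 and 37.7 CPM, the integrin chain Itga6 at 50.5 and 39.0 CPM, the interleukin 4 receptor chain Il4ra at 35.8 and 44.4 CPM and Rflnb at 54.7 and 143 CPM.

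Regulatory T cell genes were low in cluster 9 relative to cluster 21. Foxp3 had log2 ratios over the pooled other clusters of -7.28 and -2.20. Of 12 genes of the list, 9 had at least 10 UMIs over both profiles in each library, of which 5 were lower and 2 at least 2-fold lower in both than in the pooled others, beside 23.3% and 0.866% of all genes. The list summed to 543 and 530.0 CPM in TG and WT cluster 9, 247 and 137 CPM in cluster 6 and 5257 and 3701 CPM in cluster 21. Ikzf2 (Helios) was at 90.4 CPM (TG) and 70.0 CPM (WT) in cluster 9 and at 1257 CPM (TG) and 826 CPM (WT) in cluster 21. Il2ra, the high-affinity IL-2 receptor chain, was at 37.9 CPM (TG) and 48.4 CPM (WT) against 662 and 235 CPM in cluster 21. Klrg1, an inhibitory receptor of differentiated T cells, was higher than in cluster 6 and lower than in cluster 21, at 124 CPM (TG) and 26.9 CPM (WT) against 692 and 372 CPM. Of 10 genes for inhibitory receptors, 8 had at least 10 UMIs in each library, of which 6 were lower in both and 1 at least 2-fold lower in both than in the pooled others, beside the same shares of all genes. Their sums were 199.8 and 239 CPM in cluster 9, 229 and 145 CPM in cluster 6 and 923 and 836 CPM in cluster 21. Cd160 was the 1 gene of the list that was higher in both, at least 2-fold, and Pdcd1 (PD-1) had 2 and 6 UMIs in TG and WT cluster 9.

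Genes of the Th1 list were high, and summed to 5569 and 4413 CPM in TG and WT cluster 9, 1342 and 578 CPM in cluster 6 and 3821 and 1955 CPM in cluster 21. Of 12 genes, 9 were higher in cluster 9 than in the other CD4 clusters in both libraries and 7 at least 2-fold higher in both. Of 7619 genes with at least 10 UMIs in each library, 35.7% were higher in both and 1.71% at least 2-fold higher. The list medians were 1.14 in TG and 1.98 in WT. Ccl5, a chemokine of memory T cells, was at 3767 CPM (TG) and 2771 CPM (WT), and its UMIs were found in 78.8% and 69.9% of cluster 9 cells. The same gene was found in 56.5% and 39.9% of B cells, at 834 and 1122 CPM, so part of the share can be free RNA. Nkg7, a granule protein gene, was at 507 CPM (TG) and 592 CPM (WT), and Stat4, the signal transducer of the IL-12 receptor, at 187 CPM (TG) and 132 CPM (WT). Cxcr3, a chemokine receptor of Th1 cells, was at 265 CPM (TG) and 191 CPM (WT), against 51.6 and 9.01 CPM in cluster 6 and 297 and 205 CPM in cluster 21 (log2 ratios over cluster 21 of -0.17 and -0.12). At least 1 of Tbx21, Ifng, Cxcr3 and Il12rb2 was found in 68.2% (95% CI 59.5 to 76.0) of TG and 50.7% (95% CI 44.6 to 56.8) of WT cells of cluster 9. With each cell thinned to 1000 UMIs these were 39.4% (95% CI 31.0 to 48.3) and 28.7% (95% CI 23.4 to 34.4), and in B cells 3.37% and 3.75%. In cluster 21 the unthinned shares were 64.6% (95% CI 49.5 to 77.8) and 36.9% (95% CI 25.3 to 49.8), with intervals that overlap those of cluster 9 in both genotypes, and in cluster 6 32.8% (95% CI 21 to 46.3) and 5.04% (95% CI 3.10 to 7.67). Thinned, cluster 21 was at 18.8% (95% CI 8.95 to 32.6) and 13.8% (95% CI 6.53 to 24.7), where the intervals also overlap.

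As a sum, genes of the S100 and annexin list were higher in cluster 9 than in cluster 6. Of 14 S100, annexin and related genes, 14 were higher in cluster 9 in both libraries and 3 at least 2-fold higher in both, with medians of 0.80 and 1.34, beside the 35.7% and 1.71% of all genes. The list summed to 10789.6 and 7653 CPM in TG and WT cluster 9, 1829 and 1397 CPM in cluster 6 and 11299.5 and 13532 CPM in cluster 21. In WT cluster 21 thus held more, and in TG the intervals of clusters 9 and 21 overlapped. Ahnak, a large scaffold protein under the membrane, was at 1275 CPM (TG) and 1102 CPM (WT) against 149 and 60.1 CPM in cluster 6, and Lgals1 (galectin-1) at 1094 CPM (TG) and 789.7 CPM (WT). Against cluster 21 alone, Ahnak and Lgals1 were lower in WT (log2 ratios of -0.17 and -0.69), and S100a6 was at 1195 and 600.0 CPM in cluster 9 and at 1913 and 1755 CPM in cluster 21. In the list for tissue residency and homing, 8 of 14 genes were higher in both libraries and 4 at least 2-fold, and 2 were lower in both. Of all genes, 35.7% were higher in both, 1.71% at least 2-fold higher and 23.3% lower in both. The list summed to 4699 and 3780.3 CPM in cluster 9, 2661 and 1948 CPM in cluster 6 and 3195 and 3916 CPM in cluster 21. Itga1, the CD49a integrin chain of resident lymphocytes, was at 109 CPM (TG) and 43.0 CPM (WT) in cluster 9 and at most 10.3 CPM in clusters 6 and 21 of both genotypes. Ccr2, a receptor for monocyte chemoattractant chemokines, was at 276 CPM (TG) and 285 CPM (WT), below cluster 21 (374 and 464 CPM) at log2 ratios of -0.45 and -0.71, with overlapping intervals in TG. Cd44 was at 410.1 CPM (TG) and 428 CPM (WT). Cd40lg, the ligand through which helper T cells act on B cells and antigen-presenting cells, was at 128 CPM (TG) and 94.2 CPM (WT) in cluster 9 and at most 67.1 CPM in the other CD4 clusters, with an overlapping interval in WT cluster 6.

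Within cluster 9 of WT mice, a subset of cells carried Th17 genes. UMIs of Il17a, Il17f, Ccr6, Tmem176a, Tmem176b, Il23r or Il1r1 were found in 73 of 272 WT cells, 26.8% (95% CI 21.7 to 32.5), and 2 or more of these genes in 39 cells, 14.3% (95% CI 10.4 to 19.1). In TG cluster 9 they were found in 5 of 132 cells, 3.79% (95% CI 1.24 to 8.62), and 2 or more in none. Il17a, Il17f and Il23r are listed without a UMI in every TG cell, which can be a filter, so they could not count in TG. The share in B cells was 19.9% in TG and 13.1% in WT, mostly through Ccr6, which B cells express, and 2 or more genes were found in 0.843% and 0.803%. With each cell thinned to 1000 UMIs, the WT share was 17.3% (95% CI 13 to 22.3) and the TG share 1.52% (95% CI 0.184 to 5.37). In cluster 21 at least 1 of these genes was found in 13 of 65 WT cells, 20% (95% CI 11.1 to 31.8), an interval that overlaps that of WT cluster 9, and in 10.8% (95% CI 4.44 to 20.9) after thinning. For 2 or more genes the share there was 1.54% (95% CI 0.0389 to 8.28), with an interval below that of WT cluster 9. TG cluster 21 had at least 1 gene in 4.17% (95% CI 0.509 to 14.3), and cluster 6 in 1.72% (95% CI 0.0436 to 9.24) of TG and 1.26% (95% CI 0.410 to 2.91) of WT cells.

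The WT cells with a Th17 gene differed from the other WT cells of the cluster in several genes that did not choose them. Ifng was at 40.9 CPM (95% CI 17.7 to 80.7) in the 73 cells and 215 CPM (95% CI 178 to 258) in the other 199. Ccl5 was at 845 CPM (95% CI 721 to 984) and 3458 CPM (95% CI 3304 to 3618), and Cxcr3 at 113 CPM (95% CI 70.6 to 170.5) and 219 CPM (95% CI 182 to 262). These 3 genes were lower in the 73 cells, while Tbx21, at 51.2 CPM (95% CI 24.5 to 94.1) and 80.3 CPM (95% CI 58.3 to 108), had overlapping intervals. Il18r1 was higher, at 481 CPM (95% CI 389 to 589) and 288 CPM (95% CI 245 to 337), as were Maf, a transcription factor, at 926 CPM (95% CI 796 to 1072) and 491 CPM (95% CI 434 to 553), and S100a4 at 758 CPM (95% CI 640.4 to 889.8) and 290.2 CPM (95% CI 247 to 339). By share of cells with a UMI, the intervals of Il18r1, Maf and Cxcr3 overlapped between the sets, while those of Ifng, Ccl5 and S100a4 did not. Gata3 was alike, at 282 CPM (95% CI 212 to 366) and 283 CPM (95% CI 240.1 to 331), and the median depth of the sets was 2295 and 2321 UMIs per cell.

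In TG mice, Il1rl1 lay in 35 of 132 cells of cluster 9, 26.5% (95% CI 19.2 to 34.9), with 105 UMIs in all and no more than 13 in a cell. The 3 cells with the most UMIs held 25.7% of them. In WT it lay in 2 of 272 cells, 0.735% (95% CI 0.0892 to 2.63), with 4 UMIs. In B cells it was found in 0.375% and 0.335% of cells, at medians of 2923 and 2045 UMIs per cell. Thinned to 1000 UMIs per cell, the shares in cluster 9 were 12.9% (95% CI 7.68 to 19.8) and 0.368% (95% CI 0.00931 to 2.03). In WT the gene was found in 25 of 65 cells of cluster 21, 38.5% (95% CI 26.7 to 51.4), and in TG in 6 of 48 cells there, 12.5% (95% CI 4.73 to 25.2), where 85.2% of 27 UMIs lay in 3 cells. By number of cells and of UMIs, Il1rl1 was therefore mostly in cluster 9 of TG and mostly in cluster 21 of WT. In TG the intervals of the shares in clusters 9 and 21 overlap, and the levels were 221 and 138 CPM.

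The TG cells with Il1rl1 had more Gata3 and less Cxcr3 and Ccl5 than the other TG cells of the cluster, at like depth (medians of 3271 and 3081 UMIs). Gata3 was at 877 CPM (95% CI 725 to 1050.5) in the 35 cells and 383 CPM (95% CI 320.3 to 455) in the other 97, and was found in 82.9% and 60.8% of them. Ccr2 was at 479 CPM (95% CI 369 to 612) and 196 CPM (95% CI 152 to 249), and Cxcr6 at 494 CPM (95% CI 382 to 629) and 278 CPM (95% CI 225 to 339.6). Both chemokine receptors were thus higher with Il1rl1, as was Klrg1, at 225 CPM (95% CI 152 to 321) and 84.8 CPM (95% CI 56.8 to 122). Cxcr3 was at 149.8 CPM (95% CI 91.5 to 231) and 310.0 CPM (95% CI 254 to 375), and Ccl5 at 1761 CPM (95% CI 1543 to 2001) and 4550.1 CPM (95% CI 4327 to 4782), so both were lower. By share of cells with a UMI, the intervals of Gata3, Klrg1 and Ccl5 overlapped between the subsets, while those of Ccr2, Cxcr6 and Cxcr3 did not. Ifng, at 225 CPM (95% CI 152 to 321) and 243 CPM (95% CI 193 to 301), and Tbx21, at 97.4 CPM (95% CI 51.9 to 167) and 143 CPM (95% CI 106 to 189), had overlapping intervals. The neighbouring gene Il18r1 was at 97.4 CPM (95% CI 51.9 to 166.5), on 13 UMIs, and 213 CPM (95% CI 167.3 to 268), so the intervals barely part. Cells with Il18r1 were 22.9% (95% CI 10.4 to 40.1) and 34.0% (95% CI 24.7 to 44.3), and these intervals overlap. For Il18rap, at 105 CPM (95% CI 57.3 to 176) and 155 CPM (95% CI 116 to 203), the intervals overlap too. Cd4 was at 974 CPM (95% CI 814 to 1156) and 915 CPM (95% CI 817 to 1022), and Foxp3 at 0 UMIs in the 35 cells. Of the genes that also mark group 2 innate lymphoid cells, Rora was at 183 and 327 CPM in TG and WT cluster 9, Areg is listed at 0 in TG and was at 2.69 CPM in WT, although the TG library file held 4 UMIs of it in TG cluster 9 (8.41 CPM), and that list of 6 measured genes summed to 1049.5 and 644 CPM, with 2 members at 0 in TG and 1 in WT. Its other members include Gata3, Klrg1 and Il1rl1. By antibody medians (natural log scale), the 35 TG cells with Il1rl1 had CD4 at 3.74, TCR beta at 2.82 and CD3 at 0.88. The TG cells without it had 3.74, 2.51 and 0.85 in the same order. The part of group 2 innate lymphoid cells was not tested. Il4, another cytokine of Th2 cells, had 11 UMIs in TG cluster 9, of which 4 lay in the 35 cells, and 11 in WT. The Th2 cytokine Il13 had 0 UMIs in cluster 9 of both library files, and Il5 had 1 and 0 UMIs there in TG and WT cluster 9.

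**Figure D3:**
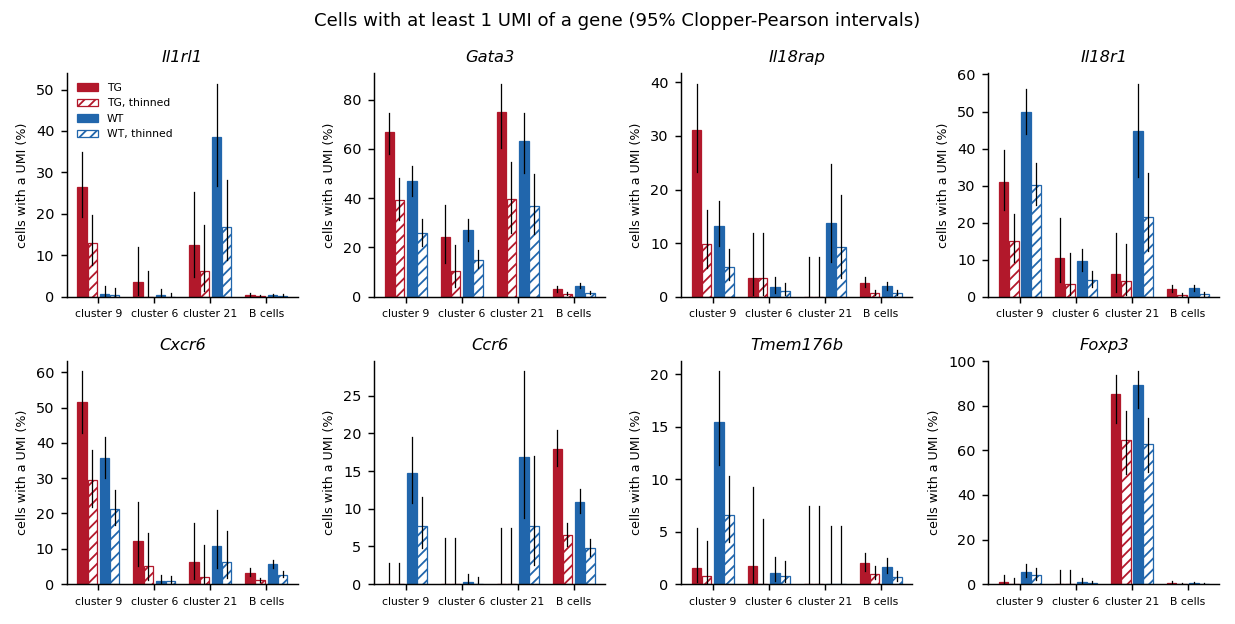
Percent of cells with at least 1 UMI of 8 genes (vertical axes) in the CD4 clusters and in mature B cells, for TG (red) and WT (blue), with all UMIs (filled bars) and after thinning each cell to 1000 UMIs (hatched bars), and black lines for the 95% Clopper-Pearson interval. Il1rl1 was found in 26.5% of TG and 0.735% of WT cells of cluster 9, and Tmem176b in 1.52% and 15.4%.

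Between TG and WT cells of cluster 9, Il1rl1 had the highest log2 ratio and Th17 genes the lowest among the ranked genes. The minimum of 50 UMIs was counted over both genotypes together, so a gene can pass it through the genotype where it is high. Il1rl1 passed through TG and Ccr6 through WT, so their ranks are a description. Il1rl1 was also given as a marker of the cluster. Of 4102 genes with at least 50 UMIs over both genotypes, 72 (1.76%) were at least 2-fold higher in TG and 79 (1.93%) at least 2-fold lower, and the median absolute log2 ratio was 0.28. With the minimum of 10 UMIs used for lists, 52.2% of 8334 genes were higher in TG and 5.59% at least 2-fold higher, and 47.8% were lower and 5.82% at least 2-fold lower. Just inside and just outside the 2-fold rule, the log2 ratios were 1.00 and 1.00 for TG over WT and 1.01 and 0.99 for WT over TG. The log2 ratio of Il1rl1 was 5.2 (95% CI 3.96 to 7.26), and in cluster 21 it was -0.92 (95% CI -1.65 to -0.24). In the list for Th2 cells and the IL-33 response, 5 of 10 measured genes had at least 10 UMIs. Of these, 3 were higher and 2 lower in TG, near the share of all genes. Against the other CD4 clusters 4 were higher in both libraries and 2 at least 2-fold, beside 35.7% and 1.71% of all genes. The list holds Il1rl1, with 105 UMIs in TG and 4 in WT, so its numbers are not read as a result. Il18rap, a neighbour of Il1rl1, was higher in TG, at a log2 ratio of 1.21 (95% CI 0.65 to 1.80). The other neighbour Il18r1 was lower, at -0.90 (95% CI -1.28 to -0.55). Adjacent receptor genes thus differed in opposite directions. Gata3 was higher in TG, at 522 CPM (TG) and 283 CPM (WT) and a log2 ratio of 0.88 (95% CI 0.61 to 1.16), while in cluster 6 the ratio was -0.12 and in cluster 21 0.15.

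Ccr6, the chemokine receptor of Th17 cells and B cells, was at 0 of 475456 UMIs in TG cluster 9, which allows up to 6.31 CPM, and at 86.1 CPM (95% CI 66.3 to 109.9) in WT, where the level was 13.6 times that limit. The 95% interval of its log2 ratio ended at -3.43, the end nearest to 0. TG B cells held it at 80.4 CPM, so the gene was measured in that library. Tmem176a and Tmem176b, membrane proteins high in Th17 cells, were at 8.41 and 99.6 CPM and 8.41 and 95.5 CPM in TG and WT, with log2 ratios of -3.40 (95% CI -5.48 to -2.15) and -3.35 (95% CI -5.42 to -2.09). Il17a and Il17f had 27 and 17 UMIs in WT cluster 9 and are listed at 0 in every TG cell, and the library file held 1 UMI of Il17a in TG cluster 9. The list of 10 Th17 genes summed to 11 UMIs (23.1 CPM) in TG, with 7 members at 0, and to 299 UMIs (402 CPM) in WT. Since 7 members passed the minimum of 10 UMIs through WT, their number and median are not read as a result. γδ T cell genes moved the same way, with Tcrg-C1 at 4.21 and 40.4 CPM and a summed level of the γδ marker list of 44.2 CPM in TG and 139 CPM in WT, all 4 measured members above 0, and the part of such cells was not tested. When cells with a UMI of Cd8a, Cd8b1, Trdc or Zbtb16 were left out, the log2 ratio of Tmem176b was -3.15.

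Ifitm2 and Ifitm3, which encode interferon-induced membrane proteins, were higher in TG than in WT cluster 9. Ifitm2 was at 139 CPM (95% CI 107 to 177) in TG and 8.07 CPM (95% CI 2.96 to 17.6) in WT, and Ifitm3 at 101 and 5.38 CPM. Both were found in 25 of 132 TG cells, and the 3 cells with the most UMIs held 37.9% and 43.8% of them. In cluster 6 their log2 ratios were 0.93 and 0.68, and in B cells 1.15 and 1.70. Klrg1 was higher in TG, at a log2 ratio of 2.18 (95% CI 1.45 to 3.02), as were Fgl2, a secreted inhibitor of immune responses, at 2.04 (95% CI 1.38 to 2.76), Asb2, a ubiquitin ligase subunit of Th cells, at 1.84 (95% CI 1.05 to 2.72), and Ccr9, a gut-homing chemokine receptor, at 1.78 (95% CI 0.96 to 2.69). For Fgl2 and Asb2 the ratio was of like size in cluster 6 (2.03 and 1.67).

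Other genes with high TG over WT ratios in cluster 9 were also found in B cells or differed in every cell set. Gzma, granzyme A, was at 431 CPM (TG) and 28.3 CPM (WT) in cluster 9, a log2 ratio of 3.90, and B cells, which should lack it, held it at 423 and 189 CPM, a log2 ratio of 1.16. Its level in cluster 9 was thus close to that of B cells in TG and below it in WT. H2-Ab1, an MHC class II chain of antigen-presenting cells, was at 159.8 and 40.4 CPM and at 5389 and 4655 CPM in B cells. Icosl, the ICOS ligand of B cells, was at 111 and 13.5 CPM against 299 and 171 CPM there. The log2 ratios of H2-Ab1 and Icosl were 1.97 and 2.99 in cluster 9 and 0.21 and 0.80 in B cells, so they were larger in cluster 9. Of 9 B cell markers, all above 0 in both genotypes, 7 were higher and 2 lower in TG cluster 9, and 6 were at least 2-fold higher. Of all genes with at least 10 UMIs, 52.2% were higher in TG and 5.59% at least 2-fold higher. The markers had summed levels of 1354 and 573 CPM and a median log2 ratio of 1.12. In cluster 6 the sums were 1783 and 609 CPM with a median of 1.97, and in cluster 21 2621 and 2024 CPM with a median of -0.01. Their part in the results on H2-Ab1, Icosl and Plac8, and that of free RNA in Gzma, was not tested. Rps10 was higher in TG by log2 ratios of 1.96 in cluster 9, 1.60 in cluster 6, 1.25 in cluster 21 and 1.48 in B cells, and mt-Atp8 was at -1.96, -0.85, -1.08 and -1.05, so these 2 differed between the libraries in every set.

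The genes lower in TG held several of the naive list. Actn1 was at 35.8 CPM (TG) and 187 CPM (WT), a log2 ratio of -2.35 (95% CI -3.21 to -1.66), and Bach2 at a log2 ratio of -1.68 (95% CI -2.95 to -0.69), while in cluster 6 the ratios were -0.66 and 0.00. Als2cl had a log2 ratio of -1.86 and Cd55, a complement regulator, of -1.93. Igfbp4, below the minimum of 50 UMIs, had 3 and 41 UMIs in TG and WT. Klrk1, which encodes NKG2D, was at 27.3 and 94.2 CPM, Jaml, an adhesion protein, at 10.5 and 79.4 CPM, and the transcription regulator Lmo4 at 33.7 and 188 CPM. Arc was at 8.41 and 61.9 CPM and had only 4 UMIs in TG. The naive list had a median of -0.58 with 10 of 12 genes lower in TG, against 0.02 over all genes with at least 10 UMIs, of which 47.8% were lower. The same list was at -0.16 in cluster 6, -0.55 in cluster 21 and -1.03 in B cells.

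**Figure D4:**
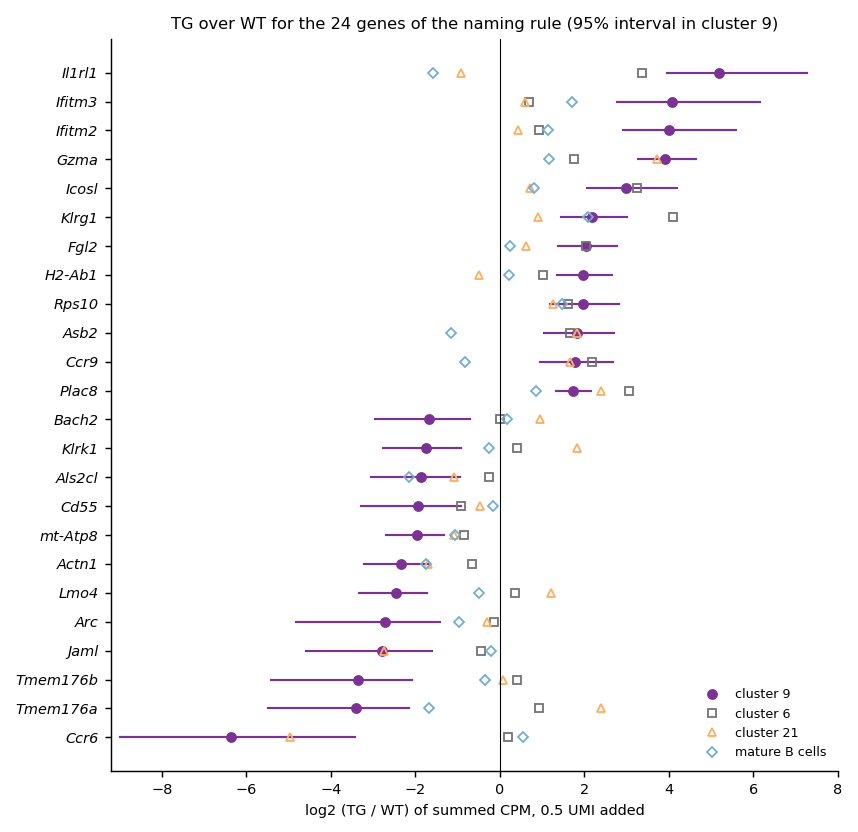
Log2 ratio of TG over WT (horizontal axis, with 0.5 UMI added to each count) for the 24 ranked genes in cluster 9 (filled circles with the 95% interval), cluster 6 (squares), cluster 21 (triangles) and mature B cells (diamonds). The bar of Ccr6 has no lower bound because its count in TG is 0 and is drawn to the axis edge, Il1rl1 is at 5.2 in cluster 9 and -0.92 in cluster 21, and Rps10 and mt-Atp8 lie on 1 side in all 4 cell sets.

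Other pathways, taken from lists, showed smaller shifts between TG and WT cluster 9. Of 25 interferon-stimulated genes, 22 were higher in TG and 2 at least 2-fold (52.2% and 5.59% of all genes), at a median log2 ratio of 0.36. The same list had a median of 0.89 in cluster 6, 0.03 in cluster 21 and 0.39 in B cells, so the shift was not seen in cluster 9 alone. Psmb9, an immunoproteasome subunit, was at 219 and 102 CPM, a log2 ratio of 1.09 that turned to -0.38 after thinning. Of 14 genes of the TGF-β pathway, 10 were lower in TG and 4 at least 2-fold (47.8% and 5.82% of all genes), at a median of -0.31, while the list summed to 1071 and 1014 CPM in TG and WT. The medians were -0.39 in cluster 6, -0.70 in cluster 21 and -0.31 in B cells, where 10 of 14 were lower too, so this shift was not seen in cluster 9 alone either. Smad7, an inhibitor that TGF-β induces, was at 73.6 and 109 CPM, and Skil, a repressor of SMAD activity, at 18.9 and 59.2 CPM, a log2 ratio of -1.58 (95% CI -2.87 to -0.59). Tgfbr2 was at 345 and 231 CPM, a log2 ratio of 0.58 (95% CI 0.26 to 0.89), and whether reads of the human transgene fall in this gene cannot be told from the counts. Of 16 immediate early genes, 15 were lower in TG (47.8% of all genes) at a median of -0.40, with Tnfaip3 at 318 and 675 CPM and Jun at 667 and 1100.4 CPM. The numbers lower and the medians were 11 and -0.11 in cluster 6, 10 and -0.14 in cluster 21 and 12 and -0.13 in B cells.

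Genes of division and of the S100 group were higher in TG. Of all genes with at least 10 UMIs, 52.2% were higher in TG cluster 9, and this share stands beside each list below. Of 18 cell cycle genes, 16 had at least 10 UMIs, 14 were higher in TG and 7 at least 2-fold (52.2% and 5.59% of all genes). Their median was 0.62 in cluster 9, 0.03 in cluster 6, 0.08 in cluster 21 and 0.10 in B cells. Mki67, found in dividing cells, was at 75.7 CPM (95% CI 53.0 to 105) in TG, in 21 of 132 cells, and 32.3 CPM (95% CI 20.7 to 48.0) in WT, in 15 of 272. Hmgb2, a chromatin protein, was at 1132 and 682 CPM. Of 14 S100 and annexin genes, 14 were higher in TG, at a median of 0.55 (cluster 6 0.37, cluster 21 -0.12, B cells 0.17), with S100a6 at 1195 and 600.0 CPM and Anxa2 at 307 and 147 CPM. The Th1 list had a median of 0.50 with 9 of 12 genes higher in TG, and the medians were 1.08 in cluster 6, with 10 of 11 higher, 0.84 in cluster 21, with 7 of 10 higher, and -0.76 in B cells. In cluster 9 Tbx21 had a log2 ratio of 0.84 (95% CI 0.29 to 1.40) and Ifng of 0.49 (95% CI 0.11 to 0.87). Of these, Il12rb2, the IL-12 receptor chain of Th1 cells, had 19 and 7 UMIs. Cytotoxic genes were mixed, with 5 of 11 higher and 6 lower, and Fasl was at 6.31 and 32.3 CPM. Of 15 glycolysis genes, 14 had at least 10 UMIs and 10 were higher in TG, at a median of 0.39 (0.33 in cluster 6 and 0.31 in cluster 21), with Ldha at 593 and 346 CPM. The heat shock list had a median of -0.05, the survival list of -0.14 and the cytokine receptor list of -0.07.

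Markers of hepatocytes, red cells, basophils and platelets were low in cluster 9, and those of several other cells were in TG at or above their level in B cells. Hepatocyte markers summed to 0 CPM in TG and 2.69 CPM in WT, erythroid markers to 0 and 5.38 CPM, basophil markers to 2.10 and 2.69 CPM and platelet markers to 2.10 and 4.04 CPM. Alb, Apoa1, Apoa2, Hbb-bt, Hba-a1 and Hba-a2 are listed without a UMI in every TG cell. The low TG sums of hepatocyte and erythroid markers can thus in part be a filter. The macrophage genes C1qa, C1qb, Adgre1 and Cd14 were at 0 in both genotypes, and the sum of that list (503 and 409 CPM) was mostly Ly6c2 (450.1 and 389 CPM), which memory T cells also express. Neutrophil markers summed to 385 CPM in TG and 179 CPM in WT, beside 288 and 166 CPM in B cells. NK markers summed to 496 and 141 CPM, beside 492 and 321 CPM in B cells, with Gzma giving most of the TG sum, and plasma cell markers to 119.9 and 60.5 CPM. Plasmacytoid dendritic cell markers summed to 198 and 83.4 CPM, mostly from Bst2 and Ccr9, with the defining gene Siglech at 2.10 and 1.35 CPM.

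On the surface, cluster 9 carried CD4 and high CD44, and TG cells had more CD49b and CD357 than WT cells. In all, 16 of the 49 antibodies were higher in TG than in WT cluster 9, so most were not. Antibody values are natural logs of counts relative to the 49 antibodies of the cell, and medians and quartiles are over cells. CD44 was at a median of 3.64 (quartiles 3.32 and 3.95) in TG and 3.46 (quartiles 3.19 and 3.77) in WT cluster 9, against 2.13 and 1.76 in cluster 6 and 3.05 and 3.18 in cluster 21. CD4 was at 3.74 (quartiles 3.36 and 4.0) and 3.41 (quartiles 2.99 and 3.62), against 0.80 and 0.35 in B cells. CD8b, at 0.37 and 0.44, lay below its value in B cells (1.63 and 1.70), and the panel held no antibody to the CD8α chain. CD49b, the integrin α2 chain, was at 1.9 (quartiles 1.38 and 2.26) in TG and 1.11 (quartiles 0.46 and 1.67) in WT, and at 0.37 and 0.12 in cluster 6 and 0.98 and 1.51 in cluster 21. CD357 (GITR), a costimulatory receptor high on regulatory T cells, was at 1.54 (quartiles 1.14 and 2.04) and 0.86 (quartiles 0.58 and 1.17). It was higher in TG in the other clusters too, at 1.1 and 0.74 in cluster 6 and 2.93 and 1.61 in cluster 21. CD49a was at 0.79 (quartiles 0.41 and 2.01) and 0.45 (quartiles 0.25 and 0.91), and its gene Itga1 was higher in TG as well. CD25, the IL-2 receptor chain, was at 0.34 and 0.31, below cluster 21 (0.91 and 0.58) and B cells (1.02 and 0.96). CD69, an early activation protein, was low at 0.17 and 0.33, and in B cells it was at 0.20 and 0.27. CD279 (PD-1) was at 0.32 and 0.43.

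The subsets found by transcripts also differed in antibodies that did not choose them. TG cells with Il1rl1 had CD49b at 2.36 (quartiles 2.04 and 2.69) and those without at 1.66 (quartiles 1.2 and 2.11), and CD357 at 2.05 (quartiles 1.43 and 2.44) and 1.43 (quartiles 1.03 and 1.88). CD90.2 (Thy-1), a surface protein of T cells, was at 5.25 (quartiles 4.86 and 5.51) and 4.32 (quartiles 3.77 and 4.99). CD43, a mucin of the T cell surface, was lower with Il1rl1, at 1.35 (quartiles 0.78 and 2.74) and 2.61 (quartiles 2.11 and 2.88), as was CD49d, the integrin α4 chain, at 1.59 (quartiles 0.75 and 2.97) and 2.51 (quartiles 1.80 and 2.94). CD5 was at 3.96 (quartiles 3.64 and 4.32) and 3.38 (quartiles 2.68 and 3.92). The quartile ranges of all 6 antibodies overlapped between the subsets, and cells of 1 library are not replicates. WT cells with a Th17 gene had CD49d at 1.30 (quartiles 0.65 and 2.17), against 2.30 (quartiles 1.43 and 2.94) in the other WT cells.

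**Figure D5:**
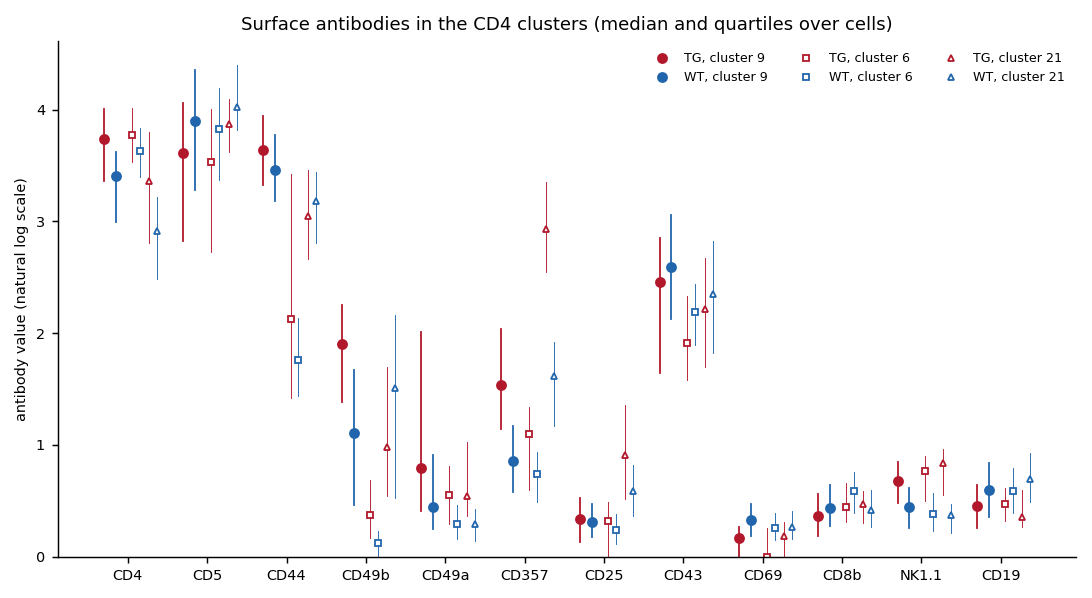
Antibody value on the natural log scale (vertical axis, from 0) for 12 surface proteins in clusters 9 (filled circles), 6 (squares) and 21 (triangles), for TG (red) and WT (blue), with points for the median and lines for the quartiles over cells. CD44 is at 3.64 and 3.46 in TG and WT cluster 9, and CD49b at 1.9 and 1.11.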

How the data were processed

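Reads were aligned by the authors to mm10 (GRCm38) with STAR, as part of the BD Rhapsody pipeline. The deposited library files and the filtered table hold UMI counts, the antibody table holds counts of 49 antibodies, the deposited antibody values are natural log centred ratios (recomputed from the counts with 0 values differing), and the mitochondrial share is a percent given by the authors. Cell type names and clusters are those of the deposited cell table. The library files were read for 10 genes.

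For each genotype, UMIs of a cell set were added up and scaled to CPM with exact Poisson intervals. Log2 ratios had 0.5 UMI added and exact conditional binomial intervals, and shares had Clopper-Pearson intervals, all at 95%. With 1 library per genotype no p-value was made. A gene was called at 2-fold, with at least 50 UMIs over both profiles in each library (clusters) or over both genotypes. Lists used genes with at least 10 UMIs. Named genes were those of 36 lists, the 15 highest and 10 lowest genes against the other CD4 clusters by the ratio nearer to 0, and the 12 highest and 12 lowest TG over WT ratios. Receptor segments, immunoglobulin genes, sex genes and genes with over 50% of their UMIs in 3 cells were left out. Some genes of the lists and of this ranking are not reported here. The cluster and the lists were chosen with earlier results of these data known.

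Scrublet in scanpy 1.11.5, with 5% as the expected rate, called doublets and marked 0.839% of all TG and 3.31% of all WT cells. Alternatives were TMM factors (edgeR 4.0.16 in R 4.3.3), library totals that leave out ribosomal and mitochondrial genes, cells weighted equally, thinning to 1000 UMIs (no cell was shallower), leaving out doublets and mixed cells, no minimum of UMIs, the other CD4 clusters taken singly, and, chosen after seeing the data, leaving out cells with a UMI of another T lineage. Calculations used Python 3.11.15, numpy 2.4.6, scipy 1.17.1 and pandas 2.3.3, and the ratio intervals were tested on simulated Poisson counts. Such counts hold no spread between cells beyond counting error, so that test does not show how the intervals cover real cells. Promoters are those of RefSeq, and 3 of 3 genes looked up were found. The study's other experiments were not used here.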

Additional observations from a re-analysis of the deposited data

Results flagged for a closer look

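In 4 genes the cluster 9 ratio went in opposite directions in TG and WT, each past 2-fold with intervals away from 0, and the difference between the libraries was not tested. They were picked from several comparisons, with Ccr4 taken over cluster 21 alone. No share of all genes is given beside them. Il1rl1 over the other CD4 clusters was at a log2 ratio of 1.38 in TG and -2.96 in WT, and cluster 21 held 138 and 264 CPM. Ccr4, a chemokine receptor of Th2 and regulatory T cells, was over cluster 21 at 1.58 in TG and -1.33 in WT, and its level in cluster 9 was alike, at 52.6 and 56.5 CPM, while cluster 21 held 15.4 and 142 CPM. The TG value of cluster 21 is the level that 3 UMIs give there. Klre1, an NK cell receptor gene, was over the other CD4 clusters at -1.25 in TG and 2.12 in WT, on 9 and 17 UMIs in cluster 9. Retnlg, a neutrophil gene, was at -1.21 and 1.32, and cluster 9 held it at 25.2 and 33.6 CPM against 28.9 and 33.4 CPM in B cells. Areg, which encodes the growth factor amphiregulin, is listed at 0 in every TG cell of the filtered table, and the TG library file held 4 UMIs in 2 cells of cluster 9, above the 3 counts that a 0 allows.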

How the results depend on the processing

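The share of cluster 9 was 2.84% of all TG cells and 3.74% of all WT cells, and 6.19% and 6.52% of T cells, in place of CD4 T cells. Il1rl1 was found in 12.9% of TG cells after thinning. Genes at least 2-fold higher in cluster 9 numbered 61 after thinning, 146 against cluster 6 alone and 407 with no minimum of UMIs, and those at least 2-fold lower 48 against cluster 21 alone and 298 with no minimum. Genes at least 2-fold higher in TG numbered 205 after thinning and 1559 with no minimum, and those lower 212 and 1053. Thinning and no minimum add genes with few UMIs by construction. TMM factors moved the median of all genes in WT cluster 9 over the other clusters from 0.15 to 0.01, and the changes there are read relative to it.

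Some log2 ratios changed sign, with the cause not tested, and only flagged ones are listed here. Left out of the list are, over cluster 21 alone, Ccr7 and S100a6 in both genotypes, Cxcr3 in TG and Bach2 in WT, among others. The flagged ratios follow. In cluster 9 over the other CD4 clusters, TG, against cluster 21 alone, they were Igfbp4 (1.52). In cluster 9 over the other CD4 clusters, WT, against cluster 21 alone, they were Lef1 (0.51), Igfbp4 (1.05), Actn1 (0.59), Cxcr3 (-0.12), Maf (-0.89), Ccr2 (-0.71), S100a4 (-0.87), Anxa2 (-0.39), Lgals1 (-0.69), Ahnak (-0.17), Rora (-0.64), Pdk1 (0.27), Als2cl (0.18) and Rflnb (0.26). In cluster 9 over the other CD4 clusters, TG, against cluster 6 alone, they were Foxp3 (0.14), Il2ra (1.44), Ikzf2 (1.30) and Klrg1 (3.86). In cluster 9 over the other CD4 clusters, WT, against cluster 6 alone, they were Foxp3 (1.96), Ikzf2 (2.50), Il1rl1 (1.27) and Klrg1 (5.78). In TG over WT, after thinning, they were Ccr7 (0.11) and Psmb9 (-0.38). In TG over WT, without cells holding Cd8a, Cd8b1, Trdc or Zbtb16, they were Ccr7 (0.073). Foxp3 in TG (1 UMI) and Klrg1 in WT (20 UMIs) over cluster 6, and Igfbp4 in TG (3 UMIs) over cluster 21, are ratios to 0 UMIs, set by the 0.5 UMI added, and are not read as a change of direction.

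Of the ratios of genes named in the text, TMM factors left 203 and moved 2, and the removal of doublets and mixed cells left 191 and moved 14, where left means within the interval of the reported value. Thinning moved 54 and changed the sign of 2, leaving out cells of another T lineage moved 36 and changed the sign of 1, and equal weight for each cell moved 29. Against cluster 6 alone 58 and against cluster 21 alone 78 moved. Of 88 medians of lists, thinning moved 57, leaving out cells of another T lineage 43, equal weight 38, leaving out doublets and mixed cells 30, totals without ribosomal and mitochondrial genes 18 and TMM factors 17. Counts from the library files cover 10 genes only, and list medians were not run with them or against clusters 6 and 21 singly. No paired analysis was possible because each genotype had 1 library. With 1 library, no replicate could be left out. Depth limits genes of cluster 9 under 6.31 CPM for TG and under 4.04 CPM for WT, the levels that 3 UMIs give.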
